A study of Gallus gallus with 6 samples.

Results

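The translation initiation and elongation factors of DT40 cells are described here, together with the release factors and the cytoplasmic poly(A) binding proteins. They were chosen by gene symbol (EIF followed by a digit, EEF1 or EEF2, ETF1, GSPT1 and PABPC), leaving out the EIF2AK kinases and any gene with fewer than 20 counts over all libraries. Of 17108 genes in the deposited table, 48 had such a symbol and 45 had enough counts. The genes left out were EEF1A2 and EIF4B, which had 0 counts in every library, and EIF4E3, which had 12 counts in all. DT40 is a chicken B cell line, and RNA sequencing was used to compare Bach2 knockout cells (genotype Bach2-/-, 3 libraries) with wild type cells (Clone 18, 3 libraries). Each library came from its own culture in the same medium. Bach2 is a transcriptional repressor of the B cell lineage, and the series title places it in immunoglobulin gene conversion and hypermutation. The knockout libraries share the name Bach2ko1 with a replicate number, but how many clones their cultures go back to is not stated. The genotype and the clone therefore cannot be told apart, and p-values measure the spread between cultures only.

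Translation starts when the GTPase eIF2 brings initiator tRNA to the small ribosomal subunit, held open for scanning by eIF1, eIF1A and the large scaffold eIF3. The mRNA is recruited through its cap by eIF4E, the scaffold eIF4G and the helicase eIF4A, while poly(A) binding protein holds its tail, and eIF5 and eIF5B complete the joining of the subunits. eEF1A then delivers each aminoacyl-tRNA, eEF2 moves the ribosome along and the release factors eRF1 and eRF3 end the chain. Supply of eIF2 and eIF4E is a main point of control: stress kinases phosphorylate the alpha subunit of eIF2, and 4E-binding proteins hold eIF4E back when mTORC1 is inactive. B cells that turn to antibody secretion depend on a high capacity for protein synthesis.

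Libraries held between 12934863 and 19316678 counts in the knockout and between 8999010 and 20647281 counts in wild type. In a principal component analysis of all 9159 genes tested, the genotypes separated on the first component (72.6% of the variance), and on the second (13.0%) knockout replicate 1 stood away from its 2 companions. BACH2 itself had 2.60, 3.37 and 2.57 CPM (counts scaled to the size of the library, with TMM factors) in knockout replicates 1, 2 and 3, against 6.60, 6.35 and 6.10 CPM in wild type replicates 1, 2 and 3. This was a log2 fold change of -1.16 ± 0.20 (SE, edgeR adjusted p = 0.00144), with 34 to 61 counts left in the knockout libraries. As a check of the cell type, 6 B cell genes (PAX5, EBF1, CD79B, BLNK, BTK and SYK) summed to 1487 to 1537 CPM in knockout libraries and 1716 to 1842 CPM in wild type libraries. PAX5, EBF1, CD79B and BTK were lower in the knockout (log2 fold change -0.42, -0.45, -0.50 and -0.23, each with edgeR adjusted p under 0.05). BLNK (0.26) and SYK (-0.19) did not pass that threshold. The 4 T cell markers summed to 85.2 to 107 CPM in the knockout and 139.7 to 176 CPM in wild type, with CD4 at 0. CD3E, CD3D and CD8A were all lower in the knockout (log2 fold change -4.33, -0.49 and -4.29). Those 3 genes thus moved with the genotype, and their part in the results was not tested. Markers of macrophages and granulocytes, fibroblasts and red cells summed to at most 4.28 CPM in any library, with MARCO, COL1A1, COL3A1 and HBAD at 0. HBA1, HBBA, GATA1 and CSF1R were not found under those symbols, so the check for red cells rests on HBAD alone.

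The levels of these genes spanned a wide range. Per length, EEF1A1, the GTPase that carries aminoacyl-tRNA, stood first in both genotypes. It averaged 6950.0 RPKM in the knockout and 8948 RPKM in wild type. RPKM is a read count scaled to gene length and library size, and this unit was inferred for the values that the authors deposited. PABPC1, the main cytoplasmic poly(A) binding protein, came next with 1808 RPKM in the knockout and 1474 RPKM in wild type. EIF4A2 (1295 RPKM in the knockout, 1071 RPKM in wild type), EEF2 (1134 RPKM in the knockout, 1247 RPKM in wild type) and EEF1B2 (1020 RPKM in the knockout, 922 RPKM in wild type) followed, and these neighbours were not tested against each other. At the low end were PABPC1L, at 3.92 RPKM in the knockout and 4.12 RPKM in wild type, and EEF2K, the kinase that inactivates eEF2, at 11.3 RPKM in the knockout and 11.9 RPKM in wild type. All 45 genes together took 4.22% to 4.32% of the counts in knockout libraries and 4.20% to 4.48% in wild type libraries, ranges that overlap. EEF1A1 alone took 1.14% to 1.21% in the knockout and 1.39% to 1.58% in wild type. Without EEF1A1, the other 44 genes took 3.07% to 3.15% of the counts in the knockout, above the 2.81% to 2.90% of wild type libraries. The split at EEF1A1 was chosen after its values were seen and was not tested (with 3 libraries against 3, an exact two-sided permutation test cannot go below p = 0.10).

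**Figure D1:**
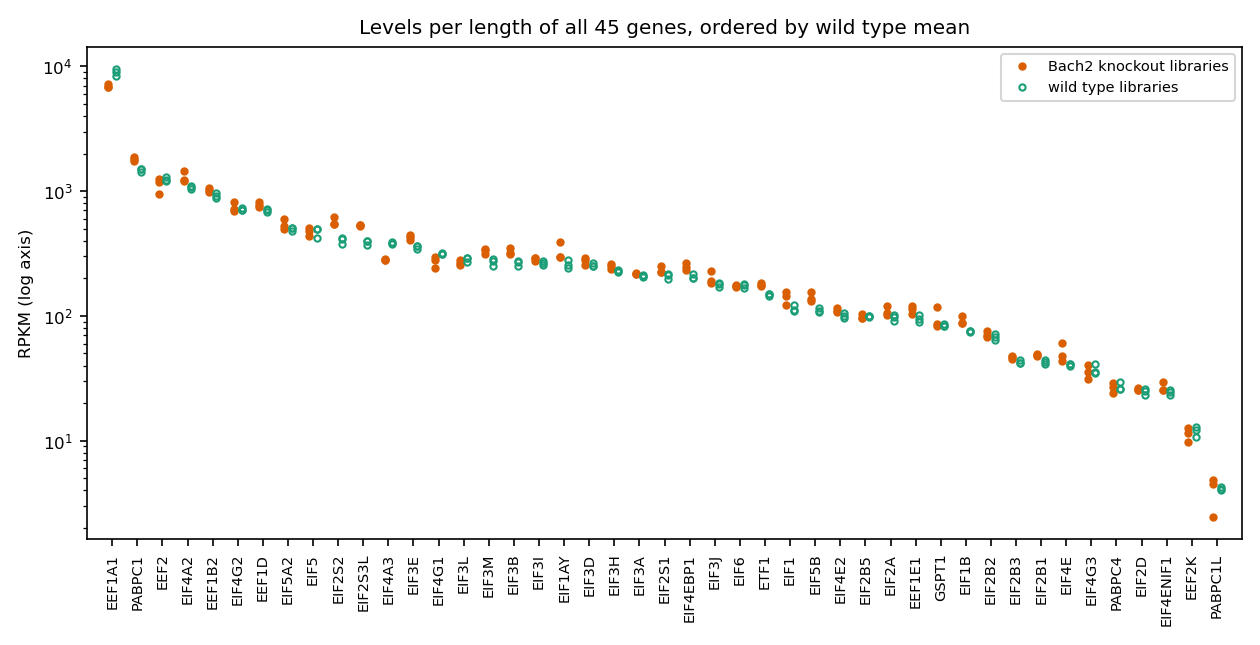
RPKM of the 45 translation factor genes on a log axis, ordered by their wild type mean, with each knockout library (filled) and each wild type library (open) as a point. EEF1A1 averaged 6950.0 RPKM in the knockout and 8948 RPKM in wild type, and PABPC1L, the lowest, 3.92 RPKM in the knockout and 4.12 RPKM in wild type.

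More of these genes were higher than lower in the knockout, and the changes were small. A gene was called when its adjusted p over all 9159 genes tested was under 0.05 in edgeR's two-sided quasi-likelihood test, and each log2 fold change (knockout over wild type) is given with its standard error, SE. All 45 genes passed the filter on low counts, and 15 of them were called, where 30.7% of all tested genes were: 12 rose, 3 fell and 30 were not called. The share that rose was 26.7%, where 12.7% of all tested genes did, and the share that fell was 6.67%, where 18.0% of all tested genes did. The median log2 fold change was 0.11 over the 45 genes and -0.0014 over all tested genes, and 33 of the 45 values were above 0. They ran from -0.48 (EIF4A3) to 0.45 (EIF2S2), so that no gene changed by as much as 1.5-fold. Every knockout library lay above every wild type library for 16 of the 45 genes (35.6%, against 21.4% of all tested genes) and below for 3 (6.67%, against 24.8%). The 45 genes had a median of 34882 counts over the libraries and all tested genes a median of 3267, so that smaller changes can be called among them, and the part of this in the shares was not tested. With library totals in place of TMM, which moved the median over all genes by 0.035, 15 rose and 2 fell, where 15.6% of all tested genes were called higher and 16.3% lower.

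**Figure D2:**
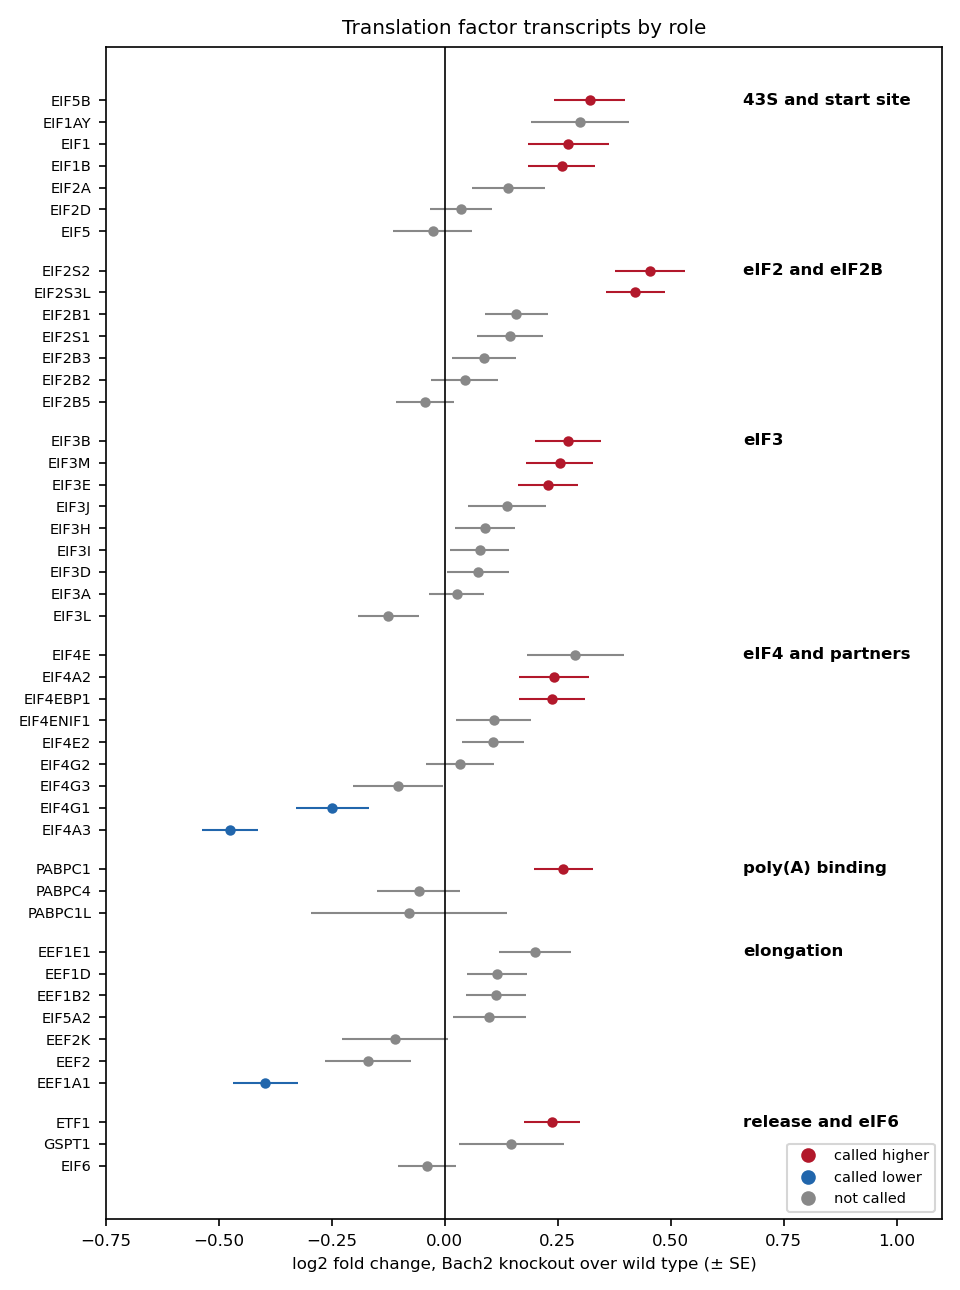
Log2 fold change of knockout over wild type (points) with SE (bars) for the 45 translation factor genes, grouped by role, with called genes in red (12 higher) or blue (3 lower). The beta and gamma subunits of eIF2 have the largest increases, 0.45 and 0.42, and EIF4A3 and EEF1A1 the largest decreases, -0.48 and -0.40.

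The largest increases were in eIF2, the trimer that carries initiator tRNA. EIF2S2, its beta subunit, had 838, 741 and 744 CPM in knockout replicates 1, 2 and 3, against 523, 581 and 592 CPM in wild type replicates 1, 2 and 3. EIF2S3L, listed in the file under this name and in RefSeq as EIF2S3, the GTP-binding gamma subunit, had 917, 951 and 943 CPM in the knockout, against 659, 715 and 724 CPM in wild type. In both genes all knockout libraries lay well above all wild type libraries. EIF2S2 rose by 0.45 ± 0.077 (log2, SE, edgeR adjusted p = 0.00139) and EIF2S3L by 0.42 ± 0.065 (edgeR adjusted p = 0.000785). Both kept their call in all 14 alternatives, with adjusted p up to 0.0118 and 0.00686.

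EIF2S1, the alpha subunit that stress kinases phosphorylate, did not pass. It had 359, 321 and 320.5 CPM in the knockout, against 283, 314 and 307 CPM in wild type (log2 fold change 0.14 ± 0.074, edgeR adjusted p = 0.164). The knockout libraries lay above the wild type libraries by a small margin, with knockout replicate 1 highest. The ratio of alpha to beta in RPKM, a comparison chosen after the values were seen, was 0.411, 0.415 and 0.413 in the knockout libraries, against 0.520, 0.518 and 0.498 in wild type libraries. The ratio of beta to gamma was 1.18, 1.01 and 1.02 in the knockout, against 1.03, 1.05 and 1.06 in wild type. Transcripts of beta and gamma thus kept a ratio near 1 in both genotypes, in overlapping ranges, while that of alpha to beta was lower in every knockout library.

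eIF2B, the exchange factor that reloads eIF2 with GTP, did not show calls in the 4 subunits analysed. EIF2B5, its catalytic subunit, had 224, 209 and 209.5 CPM in the knockout, against 219.7, 223 and 219 CPM in wild type, in overlapping ranges (-0.044 ± 0.064, edgeR adjusted p = 0.643). EIF2B1, EIF2B3 and EIF2B2 had log2 fold changes of 0.16, 0.086 and 0.044. EIF2B1 had 71.5, 70.6 and 69.2 CPM in the knockout, against 64.9, 63.1 and 61.1 CPM in wild type, without overlap (edgeR adjusted p = 0.110). Of the 7 genes of eIF2 and eIF2B, 2 rose, 0 fell and 5 were not called. The share that rose was 28.6% of these 7 genes, against 12.7% of all tested genes. It rests on EIF2S2 and EIF2S3L and over 7 genes is near that share. Every knockout library lay above every wild type library for 4 of the 7 genes (57.1%), against 21.4% of all tested genes. That difference rests on few genes and was not tested.

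Another group of 7 genes acts on the preinitiation complex, the small subunit with its factors, in the choice of the start codon or, for EIF5B, in subunit joining. Of these 7 genes, 3 rose and 4 were not called, with a median of 0.26. The share that rose was 42.9% of these 7 genes, against 12.7% of all tested genes, and rests on 3 genes. EIF5B, the GTPase that joins the ribosomal subunits, had 661, 579 and 553 CPM in the knockout, against 467, 467 and 503 CPM in wild type (0.32 ± 0.079, edgeR adjusted p = 0.0111). EIF1, which guards the choice of the start codon, had 277, 348 and 326 CPM in the knockout, against 254, 280.2 and 253 CPM in wild type (0.27 ± 0.090, edgeR adjusted p = 0.0397). Its close copy EIF1B had 123, 109 and 108 CPM in the knockout, against 94.97, 93.3 and 95.6 CPM in wild type (0.26 ± 0.074, edgeR adjusted p = 0.0220). EIF5B and EIF1B did not overlap between the genotypes, while knockout replicate 1 of EIF1 lay below wild type replicate 2. Every knockout library lay above every wild type library for 42.9% of the 7 genes, against 21.4% of all tested genes, which rests on 3 genes. Counting could have divided reads between EIF1 and EIF1B where their sequences are alike.

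EIF1AY, which RefSeq lists as EIF1AX and which encodes the scanning factor eIF1A, had 325, 248 and 248 CPM in the knockout, against 206, 219.8 and 241 CPM in wild type. It did not pass (0.30 ± 0.11, edgeR adjusted p = 0.0579), although the groups did not overlap, and knockout replicate 1 stood far above the rest. It was called in 4 of 14 alternatives, among them without knockout replicate 3 (0.39, edgeR adjusted p = 0.0211). EIF2A and EIF2D, which can deliver initiator tRNA by other routes, and EIF5, which triggers GTP hydrolysis on eIF2, had log2 fold changes of 0.14, 0.036 and -0.026. EIF5B was not called without wild type replicate 1 or 2 (0.30 each, edgeR adjusted p = 0.0563 and 0.0574). EIF1B was not called without wild type replicate 1, 2 or 3 (0.26, 0.25 and 0.27, edgeR adjusted p = 0.0693, 0.0889 and 0.0705). EIF1 was not called without knockout replicate 2 or 3 (0.20 and 0.27, edgeR adjusted p = 0.163 and 0.0506) or without wild type replicate 1, 2 or 3 (0.25, 0.32 and 0.25, edgeR adjusted p = 0.140, 0.0566 and 0.138).

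eIF3, the scaffold on the small subunit, was represented by 9 subunits, of which 3 rose and 6 were not called (median 0.089). The share that rose was 33.3% of these 9 genes, against 12.7% of all tested genes, and rests on 3 genes. EIF3B, a subunit of its core, had 967, 887 and 854 CPM in the knockout, against 705, 755 and 782 CPM in wild type (0.27 ± 0.073, edgeR adjusted p = 0.0166). EIF3M had 443, 439 and 404 CPM in the knockout, against 333, 380.3 and 365 CPM in wild type (0.25 ± 0.073, edgeR adjusted p = 0.0237). EIF3E had 642, 615 and 590.4 CPM in the knockout, against 501, 537 and 539 CPM in wild type (0.23 ± 0.066, edgeR adjusted p = 0.0241). In all 3 the genotypes did not overlap, and knockout replicate 1 was the highest library. Every knockout library lay above every wild type library for 33.3% of the 9 subunits, against 21.4% of all tested genes, which over 9 genes is near that share. The other 6 subunits (EIF3J, EIF3H, EIF3I, EIF3D, EIF3A and EIF3L) had log2 fold changes from -0.12 (EIF3L) to 0.14 (EIF3J), with overlap between the genotypes in each. EIF3A, the largest subunit, averaged 1100.3 ± 18.3 CPM in the knockout and 1081 ± 28.9 CPM in wild type (SD, n = 3 each), a difference within the spread between libraries.

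Calls in eIF3 were lost in fits that left out a library, which rest on fewer samples. With all libraries 12.7% of all tested genes were called higher. The share was 8.10% without knockout replicate 2, and 6.95%, 6.87% and 6.87% without wild type replicate 1, 2 or 3. EIF3B was not called without wild type replicate 1 or 2 (0.23 and 0.28, edgeR adjusted p = 0.0776 and 0.0597). EIF3M was not called without knockout replicate 2 (0.24, edgeR adjusted p = 0.0853) or without wild type replicate 1 or 3 (0.20 and 0.27, edgeR adjusted p = 0.102 and 0.0726). EIF3E was not called without knockout replicate 2 (0.23, edgeR adjusted p = 0.0722) or without wild type replicate 1, 2 or 3 (0.19, 0.25 and 0.25, edgeR adjusted p = 0.0952, 0.0701 and 0.0688).

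Of 9 genes of the cap-binding complex and its partners, 2 rose, 2 fell and 5 were not called. That is 22.2% in each direction, against 12.7% of all tested genes higher and 18.0% lower, which over 9 genes is near those shares. EIF4A2, an RNA helicase that unwinds leader sequences, had 2603, 2230.1 and 2193 CPM in the knockout, against 2006, 1923 and 2015 CPM in wild type (0.24 ± 0.078, edgeR adjusted p = 0.0375). EIF4EBP1, the 4E-binding protein that mTORC1 switches off, had 188, 204 and 179.8 CPM in the knockout, against 157, 169.9 and 159 CPM in wild type (0.24 ± 0.073, edgeR adjusted p = 0.0315). EIF4G1, the main scaffold of the complex, had 1222, 1409 and 1496 CPM in the knockout, against 1610.1, 1627 and 1667 CPM in wild type (-0.25 ± 0.080, edgeR adjusted p = 0.0365). The genotypes did not overlap in any of these, which were called on these same libraries, so that separation is in part fixed by the choice. Over the 9 genes, every knockout library lay above every wild type library for 33.3% and below for 22.2%. The shares over all tested genes were 21.4% and 24.8%, near these for a group of 9. Knockout replicate 1 was the most extreme library for EIF4A2 and EIF4G1. EIF4A2 carries EIF4A1 as an older name in RefSeq, and reads of a near-identical copy could be counted with it.

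EIF4E, the cap-binding protein, did not pass. It had 288, 227 and 207 CPM in the knockout, against 191, 199.5 and 199.7 CPM in wild type (0.29 ± 0.11, edgeR adjusted p = 0.0641), without overlap but with knockout replicate 1 far above the others. EIF4E was called in 4 of 14 alternatives, over which its edgeR, limma or DESeq2 adjusted p ran from 0.0093 to 0.191, and stood at 0.14 without knockout replicate 1 and at 0.40 without knockout replicate 3. EIF4G2, a relative of eIF4G that lacks the site for eIF4E, had 3373, 2969 and 2879 CPM in the knockout, against 2942, 2986 and 3079 CPM in wild type, in overlapping ranges (0.034 ± 0.075, edgeR adjusted p = 0.766). The ratio of EIF4G1 to EIF4G2 in RPKM, chosen after the values were seen, was 0.296, 0.387 and 0.424 in the knockout, against 0.447, 0.445 and 0.442 in wild type. It was thus nearly constant in wild type and lower in every knockout library, with knockout replicate 1 lowest. EIF4G3, another scaffold, EIF4E2, which competes for caps, and EIF4ENIF1, the shuttle protein of eIF4E, had log2 fold changes of -0.10, 0.11 and 0.11.

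EIF4A3 had the largest decrease of all 45 genes. Its product is an RNA helicase of the exon junction complex, which marks spliced mRNA, and not a factor of cap-dependent scanning. It had 419, 418 and 409.8 CPM in the knockout, against 559.8, 588 and 586 CPM in wild type (-0.48 ± 0.062, edgeR adjusted p = 0.000245). The knockout libraries lay close together and far below wild type, and EIF4A3 lies on chromosome 3, which was lower as a whole. EIF4A2 was not called without knockout replicate 2 (0.28, edgeR adjusted p = 0.0559) or without wild type replicate 1, 2 or 3 (0.25, 0.22 and 0.26, edgeR adjusted p = 0.0936, 0.140 and 0.100). EIF4EBP1 was not called without the same 4 libraries (0.19, 0.21, 0.27 and 0.23, edgeR adjusted p = 0.141, 0.114, 0.0572 and 0.114). EIF4G1 was not called without those libraries either (-0.26, -0.26, -0.25 and -0.23, edgeR adjusted p = 0.0797, 0.0877, 0.103 and 0.130), nor with library totals in place of TMM (-0.21, edgeR adjusted p = 0.0604).

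Among the poly(A) binding proteins, PABPC1 rose and the less abundant members were not called. PABPC1 had 3303, 3052 and 3187 CPM in the knockout, against 2687, 2553 and 2715 CPM in wild type, with a clear gap between the genotypes. It rose by 0.26 ± 0.065 (log2, SE, edgeR adjusted p = 0.0116), and it was not called without wild type replicate 2 (0.24, edgeR adjusted p = 0.0720). PABPC4, the inducible form, had 51.0, 46.3 and 54.8 CPM in the knockout, against 57.3, 50.3 and 50.2 CPM in wild type (-0.057 ± 0.092, edgeR adjusted p = 0.672). PABPC1L, a form known from oocytes in mammals, had 5.66, 10.4 and 11.1 CPM in the knockout, against 9.48, 9.64 and 10.0 CPM in wild type (-0.080 ± 0.22, edgeR adjusted p = 0.814). Knockout replicate 1 was the low library for PABPC1L, and without it the value was 0.15.

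Of 7 elongation genes, 1 fell and 6 were not called. The share that fell was 14.3%, against 18.0% of all tested genes, which over 7 genes is near that share. None rose, where 12.7% of all tested genes did. EEF1A1 had 11227, 11856.5 and 11348 CPM in the knockout, against 14044, 16033 and 15265 CPM in wild type. All knockout libraries lay below all wild type libraries, with a log2 fold change of -0.40 ± 0.072 (edgeR adjusted p = 0.00201). Like EIF4A3, EEF1A1 lies on chromosome 3.

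The exchange factors of eEF1A did not pass. EEF1B2 and EEF1D, the subunits that reload eEF1A with GTP, had log2 fold changes of 0.11 ± 0.067 and 0.12 ± 0.066 (edgeR adjusted p = 0.228 and 0.215). EEF1D averaged 1603 ± 77.0 CPM in the knockout and 1479 ± 49.3 CPM in wild type, and EEF1B2 averaged 1323 ± 44.2 CPM in the knockout and 1223 ± 63.2 CPM in wild type (SD, n = 3 each). The ratio of EEF1A1 to EEF1B2 in RPKM, again chosen after the values were seen, was 6.90, 6.82 and 6.74 in the knockout, against 9.44, 9.74 and 9.94 in wild type, lower in every knockout library. That of EEF1A1 to EEF2 was 7.12, 6.02 and 5.48 in the knockout, against 6.90, 7.31 and 7.30 in wild type, in overlapping ranges. EEF1A1 lies on chromosome 3, which was lower as a whole, and the part of this in either ratio was not tested. EEF1E1, which belongs to the complex of tRNA synthetases, had a log2 fold change of 0.20 ± 0.080 (edgeR adjusted p = 0.0843) and was called without knockout replicate 3 (0.27, edgeR adjusted p = 0.0260).

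EEF2, the translocase, had 3288, 4109 and 4317 CPM in the knockout, against 4244, 4576 and 4361 CPM in wild type. Only knockout replicate 1 stood clearly apart, the ranges overlapped, and the gene did not pass (-0.17 ± 0.096, edgeR adjusted p = 0.208, and -0.058 without that library). EEF2K had 28.9, 22.7 and 26.4 CPM in the knockout, against 30.2, 25.0 and 28.7 CPM in wild type (-0.11 ± 0.12, edgeR adjusted p = 0.510). EIF5A2, of the family that helps the ribosome past difficult peptide bonds, had 1053, 928 and 863 CPM in the knockout, against 849, 906 and 902 CPM in wild type, in overlapping ranges (0.098 ± 0.080, edgeR adjusted p = 0.388).

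For the end of translation, ETF1 rose. ETF1, the release factor eRF1 that reads stop codons, had 628, 603 and 597 CPM in the knockout, against 502, 525 and 525 CPM in wild type (0.24 ± 0.062, edgeR adjusted p = 0.0151). The genotypes were separated by a gap wider than the range within either. It was not called without wild type replicate 1, 2 or 3 (0.22, 0.25 and 0.25, edgeR adjusted p = 0.0616, 0.0574 and 0.0581). Its GTPase partner GSPT1, eRF3, had 427, 312 and 301 CPM in the knockout, against 308, 309.8 and 321 CPM in wild type (0.15 ± 0.12, edgeR adjusted p = 0.367). That difference rested on knockout replicate 1, without which the value was -0.025. EIF6, which keeps free large subunits apart from small ones, had 421, 420.5 and 408 CPM in the knockout, against 407, 439 and 438 CPM in wild type (-0.039 ± 0.064, edgeR adjusted p = 0.680).

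**Figure D3:**
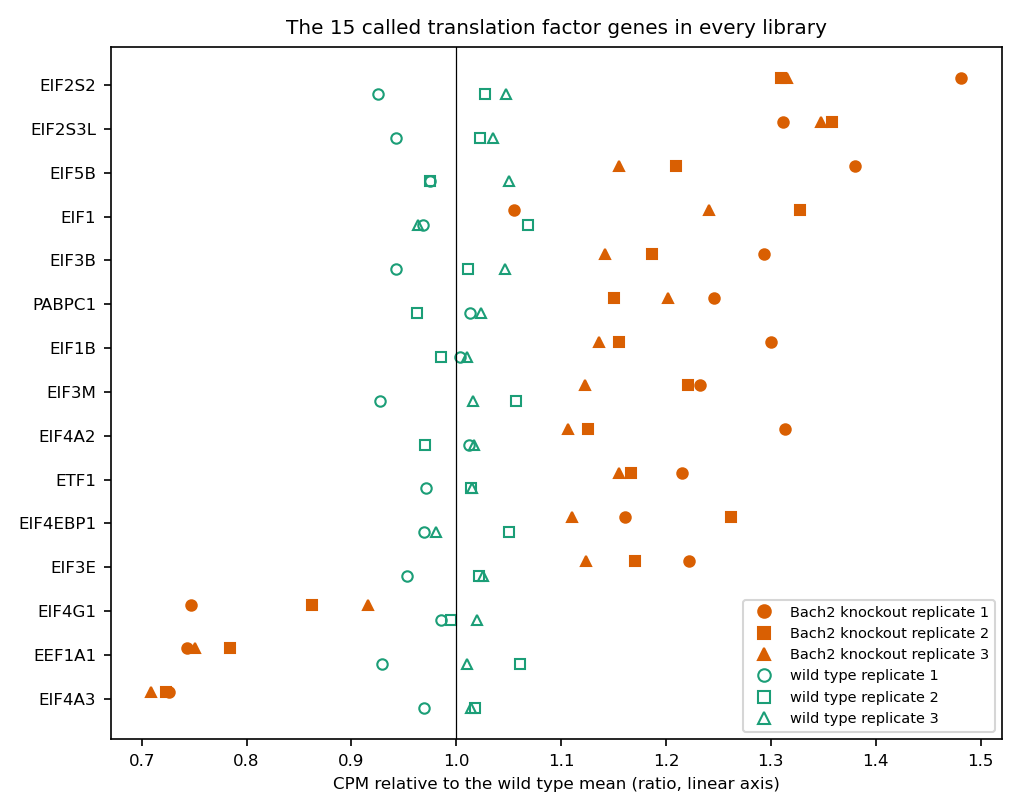
CPM of the 15 called genes in each library, as a ratio to the gene's wild type mean on a linear axis, with knockout libraries filled and wild type libraries open. The genotypes overlap for EIF1 alone among the 15, which were called on these same libraries, so that separation is in part fixed by the choice. Knockout replicate 1 is the highest library for 9 of the 12 genes that rose. It is the highest knockout library for 41.1% of all tested genes.

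Both genes with the largest decreases, EEF1A1 and EIF4A3, were placed on chromosome 3 by a RefSeq table of GRCg7b, an assembly other than the one named for the counts, used only to group genes. Of 688 tested genes on that chromosome, 484 were called lower (70.3%) and 8 higher, and their median log2 fold change was -0.45, against 0.028 for the 7622 tested genes placed on other chromosomes. On chromosome 3, 318 genes had a lower log2 fold change than EIF4A3 and 404 a lower one than EEF1A1, so both lay near the middle. When the genes of chromosome 3 were taken relative to its median, EIF4A3 stood at -0.022 ± 0.061 (edgeR adjusted p = 0.823) and EEF1A1 at 0.056 ± 0.072 (edgeR adjusted p = 0.606), and neither was called. EIF4G1 was then the only one of the 45 genes called lower, where 13.4% of all tested genes were, and 12 were called higher, where 12.9% were. Of the other genes, 42 were placed on other chromosomes and EEF1D was not placed.

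**Figure D4:**
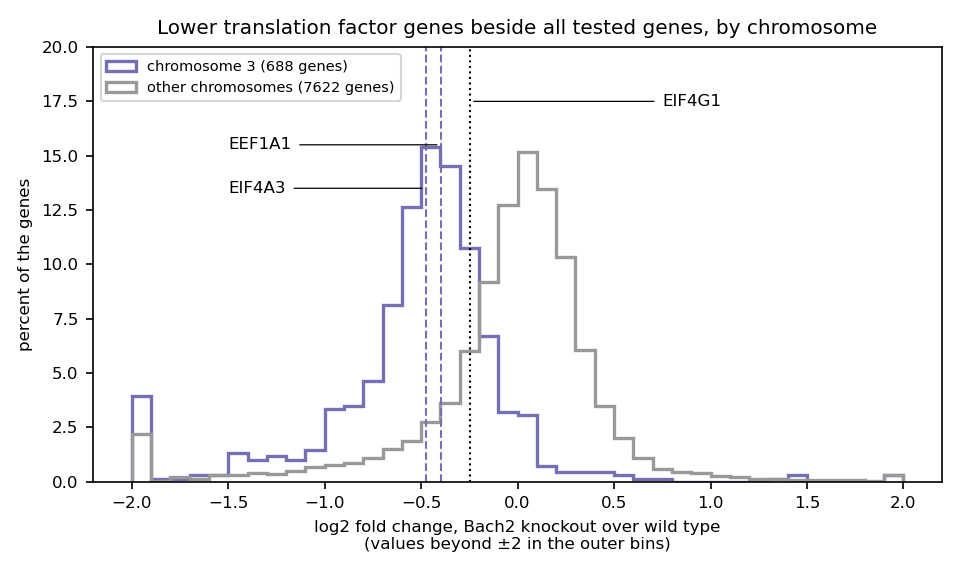
Distribution of log2 fold changes, knockout over wild type, for 688 tested genes of chromosome 3 and 7622 of other chromosomes, each as a percent of its own genes, with values beyond 2 in the outer bins. EIF4A3 (-0.48) and EEF1A1 (-0.40), dashed, lie near the middle of chromosome 3 (median -0.45), and EIF4G1 (-0.25), dotted, is placed on another chromosome.

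Knockout replicate 1 was the highest of the knockout libraries for 28 of the 45 genes (62.2%), against 41.1% of all tested genes. Relative to the wild type mean, the median log2 value of the 45 genes was 0.17, 0.095 and 0.080 in knockout replicates 1, 2 and 3, while that of all tested genes was -0.032, -0.0031 and 0.0063. Without knockout replicate 1, 13 of the 45 genes were called higher and 3 lower, where 15.8% of all tested genes were called higher and 20.7% lower. These 13 held all 12 named above and EEF1D (0.15, edgeR adjusted p = 0.0414). The counts of higher genes depended more on other libraries. They were 7 without knockout replicate 2 (8.10% of all tested genes), 14 without knockout replicate 3 (14.4%), and 3, 3 and 5 without wild type replicate 1, 2 or 3 (6.95%, 6.87% and 6.87%). EIF2S2 and EIF2S3L rose in all of these fits, and EEF1A1 and EIF4A3 fell in all of them.

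**Figure D5:**
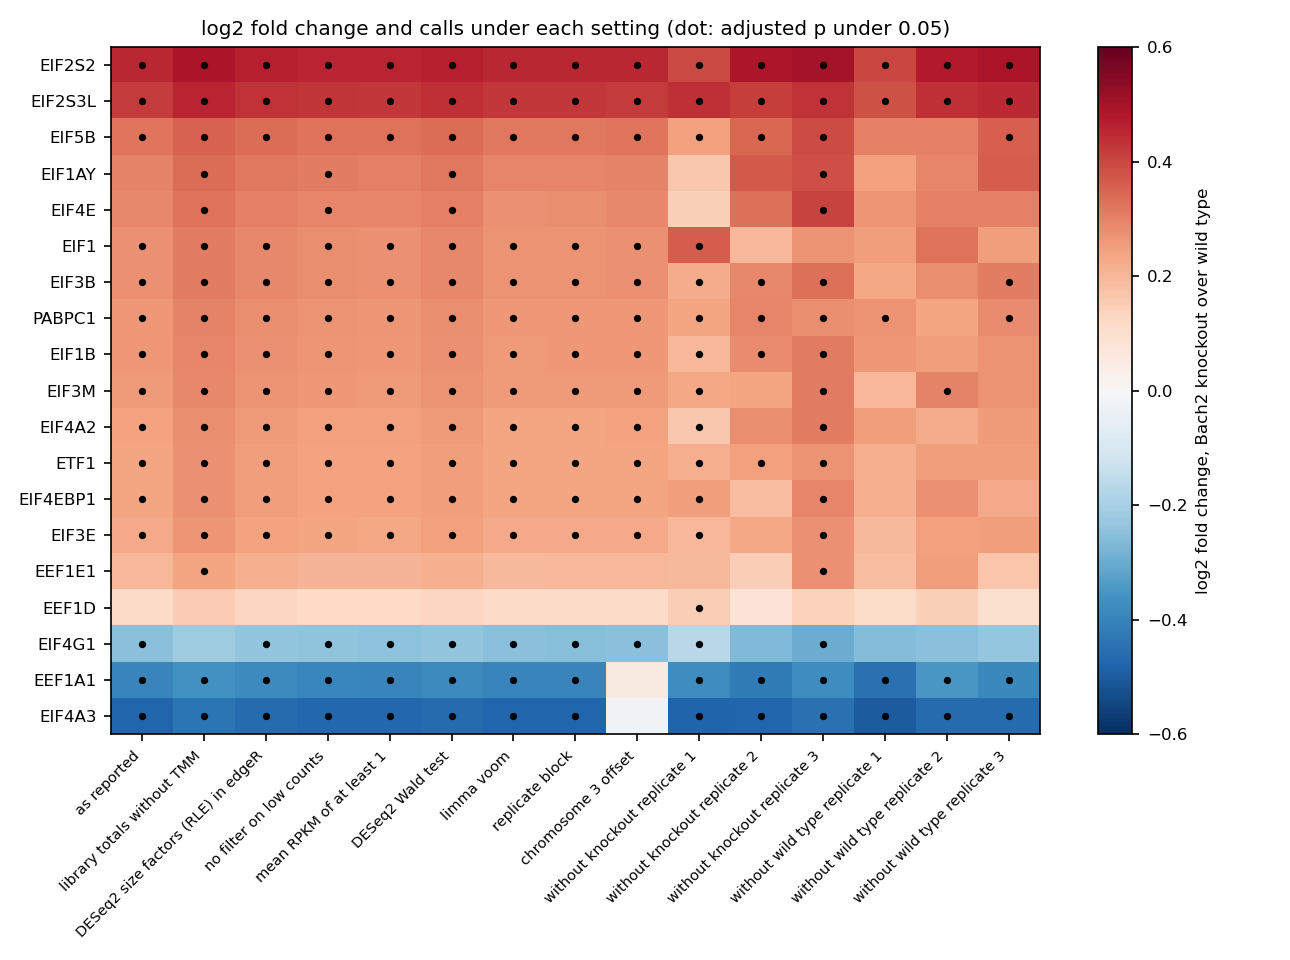
Log2 fold change (colour) of the 19 genes called under any setting, with a dot where the edgeR, limma or DESeq2 adjusted p was under 0.05. The rows of EIF2S2 and EIF2S3L have a dot in every column, EEF1A1 and EIF4A3 lack it only with the chromosome 3 offset, and most other genes lose it when a wild type library is left out.

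Lists of genes around these factors were read against the same shares, 12.7% of all tested genes higher and 18.0% lower. The integrated stress response, which acts through phosphorylation of eIF2 alpha, had 13 tested genes, of which 7 rose (53.8%), 1 fell and 5 were not called, with a median of 0.35. The list held 18 genes, but ATF5, DDIT3, PPP1R15A and NUPR1 were not found under those symbols and TRIB3 had 0 counts. The share does not cover these. The count of 7 was 3 when wild type replicate 1 was left out and 4 when knockout replicate 2 was. In those fits 6.95% and 8.10% of all tested genes were called higher, against 12.7% with all libraries. CEBPG (0.39, edgeR adjusted p = 0.0162) and PPP1R15B (0.28, edgeR adjusted p = 0.0406), among the 7, both lost the call without either library (0.21 to 0.31, edgeR adjusted p = 0.0753 to 0.155), and PPP1R15B also without knockout replicate 3 or wild type replicate 2 or 3 (0.26 to 0.32, edgeR adjusted p = 0.0630 to 0.0879). ATF3, a transcription factor induced by stress, had 10.1, 26.3 and 27.1 CPM in the knockout, against 4.74, 9.71 and 9.26 CPM in wild type (1.49 ± 0.36, edgeR adjusted p = 0.00936), and was not called without wild type replicate 1 (1.17, edgeR adjusted p = 0.0690). It lies on chromosome 3, and relative to that chromosome's median it stood at 1.94 ± 0.36 (edgeR adjusted p = 0.00273). CHAC1, a glutathione-degrading enzyme, had 124, 272 and 296 CPM in the knockout, against 69.3, 114 and 108 CPM in wild type (1.26 ± 0.28, edgeR adjusted p = 0.00619). ASNS, asparagine synthetase, had 1042, 1211 and 1123 CPM in the knockout, against 528, 739.5 and 718 CPM in wild type (0.77 ± 0.12, edgeR adjusted p = 0.000701). In all 3 genes the knockout libraries lay above the wild type libraries, as for 21.4% of all tested genes. The 3 genes were called on these same libraries, so that separation is in part fixed by the choice. Knockout replicate 1 was the lowest of the knockout in each, the reverse of its place in most factors. Wild type replicate 1 was likewise the lowest of wild type in each. Replicate 1 was also lowest in both genotypes for ATF4, CEBPG and PPP1R15B, but not in wild type for EIF2AK3. What same-numbered libraries share was not tested. VLDLR, a lipoprotein receptor, fell by 2.54 ± 0.61 (SE, edgeR adjusted p = 0.00993) at no more than 1.17 CPM in any library.

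Among the 4 kinases of eIF2 alpha, EIF2AK3, the endoplasmic reticulum sensor PERK, rose by 0.69 ± 0.21 (edgeR adjusted p = 0.0281). It had 29.7, 58.5 and 52.9 CPM in the knockout, against 27.5, 33.7 and 26.8 CPM in wild type, so that knockout replicate 1 lay within the wild type range. It was not called without knockout replicate 2 (0.50, edgeR adjusted p = 0.115) or wild type replicate 1 or 3 (0.63 each, edgeR adjusted p = 0.127 and 0.0928). EIF2AK1 (0.19), EIF2AK2 (-0.46, on chromosome 3) and EIF2AK4 (0.030) did not pass, though EIF2AK2 was called without knockout replicate 1 (-0.65, edgeR adjusted p = 0.0205). Relative to the median of chromosome 3, with all libraries, EIF2AK2 stood at -0.0090 ± 0.22 (edgeR adjusted p = 0.979). ATF4, whose translation rises when eIF2 alpha is phosphorylated, had 1091, 1218 and 1242 CPM in the knockout, against 833, 961 and 988 CPM in wild type (0.35 ± 0.083, edgeR adjusted p = 0.00866). ATF4, CEBPG, PPP1R15B and the kinases were named after their values were seen, as was SECISBP2 further on.

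Of 17 tested genes of mTORC1 and cap-binding control, 2 rose, 2 fell and 13 were not called (median 0.016). That is 11.8% in each direction, against 12.7% of all tested genes higher and 18.0% lower, which over 17 genes is near those shares. RPS6KA1, a ribosomal S6 kinase of the MAP kinase pathway, averaged 207 ± 3.08 CPM in the knockout and 326 ± 10.0 CPM in wild type (SD, n = 3 each), a log2 fold change of -0.66 ± 0.063 (edgeR adjusted p = 3.42e-05). RPS6KB1, the S6 kinase of mTORC1, had 216, 206 and 203 CPM in the knockout, against 157, 172 and 187 CPM in wild type (0.28 ± 0.077, edgeR adjusted p = 0.0189). MTOR, the kinase itself (-0.23 ± 0.079, edgeR adjusted p = 0.0447), kept its call in 2 of 14 alternatives, and LARP4B, an RNA-binding protein (0.29 ± 0.092, edgeR adjusted p = 0.0367), in 10. RPS6KB1 was not called without knockout replicate 2 (0.29, edgeR adjusted p = 0.0533) or wild type replicate 1 or 2 (0.22 and 0.28, edgeR adjusted p = 0.0842 and 0.0697). MTOR was not called in any fit that left out a library (-0.27 to -0.18, edgeR adjusted p = 0.0525 to 0.182), and LARP4B lost its call without knockout replicate 2 or any of the wild type libraries (0.24 to 0.33, edgeR adjusted p = 0.0543 to 0.146).

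Among 15 other factors of initiation, scanning and ribosome recycling, 2 rose, 2 fell and 11 were not called (median 0.034). That is 13.3% in each direction, against 12.7% of all tested genes higher and 18.0% lower, which over 15 genes is near those shares. HBS1L, which rescues stalled ribosomes with its partner PELO, averaged 107 ± 8.38 CPM in the knockout and 164 ± 4.02 CPM in wild type (SD, n = 3 each), a log2 fold change of -0.62 ± 0.075 (edgeR adjusted p = 0.000149). HBS1L is a gene of chromosome 3, and relative to that chromosome's median its value was -0.17 (edgeR adjusted p = 0.124). N6AMT1, the methyltransferase of eRF1, averaged 54.9 ± 0.886 CPM in the knockout and 40.8 ± 1.43 CPM in wild type (SD, n = 3 each), a rise of 0.43 ± 0.076 (edgeR adjusted p = 0.00173), in the same direction as ETF1. DDX3X, a helicase of long leaders (0.25 ± 0.080, edgeR adjusted p = 0.0375), and ABCF3 (-0.34 ± 0.11, edgeR adjusted p = 0.0409) each kept their call in 9 of 14 alternatives. Both lost it without knockout replicate 2 or any of the wild type libraries (0.21 to 0.29 for DDX3X, -0.39 to -0.28 for ABCF3, edgeR adjusted p = 0.0557 to 0.152), and ABCF3 also with library totals (-0.30, edgeR adjusted p = 0.0600).

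Of 13 genes that modify elongation factors or serve selenocysteine, 3 rose, 2 fell and 8 were not called (median 0.039). That is 23.1% higher and 15.4% lower, against 12.7% and 18.0% of all tested genes, which over 13 genes is near those shares. METTL13, a methyltransferase of eEF1A, had 48.9, 52.4 and 63.8 CPM in the knockout, against 72.3, 83.7 and 77.1 CPM in wild type (-0.49 ± 0.10, edgeR adjusted p = 0.00496). DOHH, which completes hypusine on eIF5A, averaged 69.3 ± 11.1 CPM in the knockout and 91.6 ± 3.22 CPM in wild type (SD, n = 3 each), a log2 fold change of -0.40 ± 0.10 (edgeR adjusted p = 0.0150). EEFSEC, the elongation factor for selenocysteine, had 25.5, 24.1 and 23.9 CPM in the knockout, against 18.2, 18.8 and 18.0 CPM in wild type (0.42 ± 0.097, edgeR adjusted p = 0.00826). FAM86A, a methyltransferase of eEF2, rose by 0.42 ± 0.13 (edgeR adjusted p = 0.0296), and so did SECISBP2, which binds the selenocysteine element of mRNAs, by 0.35 ± 0.11 (edgeR adjusted p = 0.0405). DOHH was not called without knockout replicate 2 or wild type replicate 1 or 2 (-0.39, -0.38 and -0.39, edgeR adjusted p = 0.0531, 0.0703 and 0.0550), and FAM86A without knockout replicate 2 or any wild type library (0.33 to 0.48, edgeR adjusted p = 0.0514 to 0.108). SECISBP2 was not called without the same 4 libraries (0.26 to 0.41, edgeR adjusted p = 0.0550 to 0.158). The count of 3 was 1 with any of these libraries left out, where 6.87% to 8.10% of all tested genes were called higher. Of 6 mitochondrial translation factors, 5 were not called and MTRF1L, a mitochondrial release factor on chromosome 3, fell by 0.48 ± 0.11 (edgeR adjusted p = 0.00613) and stood at -0.030 relative to that chromosome (edgeR adjusted p = 0.861). The share that fell was 16.7% of these 6 genes, near the 18.0% of all tested genes. Without knockout replicate 1, MTIF3 was called higher (0.33, edgeR adjusted p = 0.0284) and MTIF2, also on chromosome 3, lower (-0.22, edgeR adjusted p = 0.0384). Relative to the median of that chromosome, with all libraries, MTIF2 was called in the opposite direction (0.28 ± 0.089, edgeR adjusted p = 0.0398), so its direction depended on that choice.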

How the data were processed

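RNA of 6 cultures was measured: 3 Bach2 knockout and 3 wild type, grouped by the genotype label. The authors deposited raw counts per Ensembl gene and a second table, taken here as RPKM. Its deposited values are the counts multiplied by a constant of the gene and a constant of the library. Other units scaled to gene length have the same form, so the unit is not certain. The submitters' processing notes name galGal4 as the build and, among tools, Subread 1.5.0, TopHat2 2.1.0 and bcl2fastq 1.8.4 beside edgeR and limma. The annotation and the use of strand are not given in the sources used here, so reads of overlapping genes and close copies cannot be told apart. The deposited counts come under a name that speaks of RPKM, but they are whole numbers.

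Counts were fitted in R 4.3.3 with edgeR 4.0.16 (filterByExpr, 9159 genes, TMM, glmQLFit and glmQLFTest, no covariates), with Benjamini-Hochberg adjustment over all genes tested and a threshold of 0.05. The SE is the log2 fold change divided by the square root of F. CPM uses TMM-adjusted totals. limma 3.58.1 (voom) and DESeq2 1.42.0 served as alternatives. The fits were tested on simulated data with changes of 1.5-fold or more, larger than any change of the translation factor genes. That test therefore does not show how well changes of their size are found. Of 14007 NCBI identifiers, 13400 were found in a gene table of GRCg7b, used for names and chromosomes only. Within a genotype, all pairs of libraries differed beyond sampling noise (chi-square over its degrees of freedom 3.15 to 28.7). The genes, lists and rules were chosen with earlier results of these data known. Values in every library were given for called genes with the 14 largest changes and for a fixed set of core factors. Of that set, EIF5A, EIF4A1, EIF4EBP2 and EIF4EBP3 were not found under those symbols. Up to 4 called genes of each list were named. No sequences of these genes were used here.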

Additional observations from a re-analysis of the deposited data

How the results depend on the processing

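Of 14 alternatives, those other than leaving out a library gave 12 to 15 higher and 1 to 3 lower translation factor genes, with medians of 0.11 to 0.14. With the median of chromosome 3 as an offset, 1 gene was called lower, and EEF1A1 stood at 0.056, with the opposite sign. With library totals EIF5 stood at 0.0096. Leaving out a library gave 3 to 14 higher and 2 to 3 lower genes and medians of 0.076 to 0.15, and 639 to 1483 higher and 1177 to 1953 lower genes over all genes tested. None of the called genes changed sign without a library. Of those not called, signs changed for EIF5 (-0.11 to 0.046), EIF4G2 (-0.036 to 0.097), EIF2B2 (-0.0041 to 0.081), EIF2D (-0.0022 to 0.068), GSPT1 (-0.025 to 0.26), PABPC1L (-0.23 to 0.15) and PABPC4 (-0.10 to 0.012). Fits without a library rest on fewer samples. EIF2S2 and EIF2S3L were called in all 14, and 13 of the 15 called genes lost the call in at least 1. With the replicate number as a replicate block, 12 were higher and 3 lower, and over all genes 1009 higher and 1567 lower. Among the related genes, DDX3X, SECISBP2 and MTOR were not called with that block (0.25, 0.34 and -0.24, edgeR adjusted p = 0.0608, 0.0535 and 0.0657), and CEBPB was (1.55, edgeR adjusted p = 0.0153). Over all genes, same-numbered libraries did not deviate together (r = 0.0036, 0.093 and -0.021). A correlation over all genes cannot show whether some genes share a replicate effect, so it does not settle whether the numbers pair the cultures. Counting depth does not limit most of these genes, of which the lowest had 893 counts in all, but 3 cultures per genotype limit the precision of changes this small.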
